A study of Oryza sativa with 4 samples.

Results

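In young rice panicles, 74 probe sets gave a clear signal in WT and a signal at least 4-fold lower in *pho* at both panicle lengths that were measured. These lost probe sets were chosen by their measured values. Of 57258 probe sets without the array's controls, 12642 had a signal of at least 500 on both WT arrays. Of these, 81 (0.641%) also had a log2 ratio of *pho* over WT of -2 or less at 9–12 cm and again at 5–8 cm, with 16 added to every signal before the log2. The 7 probe sets of *OsMADS* genes among them were left out, which leaves the 74 described here. Because the ratio of *pho* over WT chose them, it is given as a description without a test, and it supports nothing by itself.

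The arrays carried total RNA of whole young panicles from plants grown in paddy fields in Beijing. There was 1 array for each of *pho* at 9–12 cm, WT at 9–12 cm, *pho* at 5–8 cm and WT at 5–8 cm. WT is the *indica* cultivar Zhongxian 3037. The *pho* (*phoenix*) line is a mutant that arose by itself among the offspring of this cultivar and bears plantlets where flowers should form, without stamens or carpels. The paper traces it to a coding mutation of *OsMADS15* (*dep*) combined with an epigenetic change at *OsMADS1* (*afo*), so that the *pho* arrays carry both. The 9–12 cm WT sample is WT by its title, source and genotype and was used so, although its description mentions *pho* in 1 line. Only panicles of 5–8 cm appear in the methods of the paper. Whether separate plants gave the 2 samples of each genotype is not stated.

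The stamen forms an anther in which germ cells enter meiosis and become pollen. The tapetum, the innermost layer of the anther wall, nourishes these cells, supplies lipids and other material for the pollen wall, and then degrades by programmed cell death. In rice a chain of bHLH transcription factors acts in this layer, and *TIP2*, *TDR* and *EAT1* belong to it. In whole panicles, fewer cells of a type and less RNA per cell cannot be told apart.

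The 4 arrays were scaled alike, with a trimmed mean signal of 500.1 on each. The *pho* array of 9–12 cm stood apart, with correlations of 0.796 to 0.827 with the others, whereas the other 3 arrays had correlations of 0.877 to 0.935 with each other. Without this array, with the *pho* array of 5–8 cm set against both WT arrays, 96 probe sets passed the rule, and 71 of the 74 were among them. The ratio at 5–8 cm and both WT minima had already chosen the 74, so this overlap was largely set by the rule. It says nothing about the loss at 9–12 cm. RNA quality can be read from the ratio of 3′ to 5′ signal of control genes, which was for actin 5.26 in *pho* and 4.95 in WT at 9–12 cm, and 3.28 in *pho* and 10.6 in WT at 5–8 cm. For GAPDH it was 10.96 in *pho* and 9.62 in WT at 9–12 cm, and 6.87 in *pho* and 16.4 in WT at 5–8 cm. *FON1*, a receptor kinase gene of the floral meristem, had signals between 1567 and 2391 on all 4 arrays. It was lower in *pho* at both lengths, with log2 ratios of -0.20 at 9–12 cm and -0.41 at 5–8 cm. As a single gene chosen after its values were seen, it is no standard for the arrays.

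Of the 74 lost probe sets, 58 were assigned to a single gene in the array annotation and stood for 56 different genes, because 2 genes had 2 lost probe sets each. The other 16 had no gene there. A name other than a locus number was found for 13 genes, and the remaining 43 genes are known here by their locus number only. Of the lost probe sets, 15 had an ID that marks possible hybridization to several transcripts, among them that of *YAB1*.

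The signals of the lost probe sets in *pho* were often near the floor of the array. Their median signal was 96.8 in *pho* and 2785 in WT at 9–12 cm, and 61.3 in *pho* and 1675 in WT at 5–8 cm. The median over all probe sets was 68.1 in *pho* and 60.5 in WT at 9–12 cm, and 50.5 in *pho* and 49.0 in WT at 5–8 cm. On both *pho* arrays, 18 of the 74 lay under the median of all probe sets, whereas 6 still had a *pho* signal of at least 500 on both. The loss was therefore near complete for some and partial for others.

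The median log2 ratio of *pho* over WT of the lost probe sets was -4.80 at 9–12 cm, with a range of -7.75 to -2.04. At 5–8 cm it was -4.12, with a range of -8.65 to -2.01. Over all 12642 probe sets with the same WT minimum, the median was -0.23 at 9–12 cm and -0.04 at 5–8 cm. Of the 74, 49 had the lower log2 ratio at 9–12 cm and 25 at 5–8 cm. At both lengths, 49 had a log2 ratio of -3 or less, 36 of -4 or less and 21 of -5 or less. The added 16 pulls ratios of low *pho* signals towards 0, so the lowest of them understate the difference.

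The probe sets on either side of the threshold differed little. The 5 nearest inside it were those of LOC4330996 (log2 ratio -2.75 at 9–12 cm, -2.01 at 5–8 cm), *MEL1* (-2.04 at 9–12 cm, -2.26 at 5–8 cm), LOC4347397 (-2.04 at 9–12 cm, -2.06 at 5–8 cm), Os.18494.1.S1_at (-2.26 at 9–12 cm, -2.05 at 5–8 cm) and LOC4334181 (-2.42 at 9–12 cm, -2.11 at 5–8 cm). The 5 nearest outside were Os.55110.1.S1_at (-2.55 at 9–12 cm, -1.98 at 5–8 cm), LOC4325181 (-2.09 at 9–12 cm, -1.94 at 5–8 cm), LOC4344442 (-1.92 at 9–12 cm, -2.62 at 5–8 cm), LOC107276004, listed with the synonym *OsPP2C16* (-2.73 at 9–12 cm, -1.92 at 5–8 cm), and LOC4332618 (-1.89 at 9–12 cm, -2.24 at 5–8 cm). Inside and outside, the ratio nearest to -2 was at 9–12 cm for some and at 5–8 cm for others. With the *OsMADS* genes included, 245 probe sets passed at 9–12 cm, 164 of them there only, and 110 passed at 5–8 cm, 29 of them there only.

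The named genes fall into tapetum and pollen wall genes, meiosis and germ cell genes, regulators of organs and grain, and genes of signalling, transport and metabolism. *OsC4*, a transcript of the anther tapetum, had a signal of 249 in *pho* and 22432 in WT at 9–12 cm, and of 55.8 in *pho* and 4194 in WT at 5–8 cm. It was the named gene with the lowest log2 ratio, -6.41 at 9–12 cm and -5.87 at 5–8 cm. *TIP2*, also called *bHLH142*, acts early in the differentiation of the inner anther wall layers. Its signal was 88.6 in *pho* and 1140 in WT at 9–12 cm, and 36.4 in *pho* and 1644 in WT at 5–8 cm. *TDR* (*TAPETUM DEGENERATION RETARDATION*), a bHLH factor needed for the timely degradation of the tapetum, had 113 in *pho* and 1585 in WT at 9–12 cm, and 27.8 in *pho* and 789 in WT at 5–8 cm. *EAT1* (*ETERNAL TAPETUM 1*), a bHLH factor of tapetal cell death that works downstream of *TDR*, had 36.6 in *pho* and 1007 in WT at 9–12 cm, and 2.9 in *pho* and 878.5 in WT at 5–8 cm. The *pho* signals of *TIP2* and *EAT1* at 9–12 cm lay not far from the array median of 68.1, and those of *TIP2*, *TDR* and *EAT1* at 5–8 cm lay under the median of 50.5.

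The named meiosis and germ cell genes differed in how much signal *pho* kept. *PAIR2* encodes a HORMA domain protein of the chromosome axis that homologous chromosomes need for pairing. Its signal was 47.7 in *pho* and 589.5 in WT at 9–12 cm, and 120 in *pho* and 749.7 in WT at 5–8 cm. *MEL1* encodes an Argonaute protein of germ cells before and during meiosis, which binds phased small RNAs. Its signal was 259 in *pho* and 1111 in WT at 9–12 cm, and 650.3 in *pho* and 3179 in WT at 5–8 cm. Thus the *pho* signal of *MEL1* at 5–8 cm was well above the median of its array, and its ratios stood near the threshold at both lengths.

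Among the regulators of organs and grain, *SL1* (*STAMENLESS 1*), a C2H2 zinc finger gene of lodicule and stamen identity, had a signal of 20.5 in *pho* and 615 in WT at 9–12 cm, and of 110 in *pho* and 608 in WT at 5–8 cm. *SPL16*, an SBP-box transcription factor gene known for its effect on grain width, had 141 in *pho* and 4055 in WT at 9–12 cm, and 458 in *pho* and 3761 in WT at 5–8 cm. Both had the deeper loss at 9–12 cm, with a log2 ratio of -4.11 at 9–12 cm and -2.30 at 5–8 cm for *SL1*, and of -4.70 at 9–12 cm and -2.99 at 5–8 cm for *SPL16*. *YAB1*, a YABBY gene of the kind that acts in lateral organs, kept a clear signal in *pho*. It had 3768 in *pho* and 17445 in WT at 9–12 cm, and 3276 in *pho* and 14550 in WT at 5–8 cm, and its loss was partial at both lengths. A further probe set of *YAB1* had a WT signal under 500 and was not used.

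The genes of signalling, transport and metabolism include *Cht7*, whose product belongs to the chitinases, enzymes that cleave chitin and in plants are best known from defence. Its signal was 277 in *pho* and 11084 in WT at 9–12 cm, and 65.5 in *pho* and 1667 in WT at 5–8 cm. *TIFY11A*, listed with the synonym *JAZ9*, is a JAZ gene, and JAZ proteins repress the response to jasmonate until the hormone triggers their degradation. It had a signal of 304 in *pho* and 1776 in WT at 9–12 cm, and of 52.8 in *pho* and 628 in WT at 5–8 cm. *OsPIP2;7* encodes an aquaporin, a water channel of the plasma membrane, and had 201 in *pho* and 3584 in WT at 9–12 cm, and 756 in *pho* and 3632 in WT at 5–8 cm. *OsGS1;3*, a cytosolic glutamine synthetase that assimilates ammonium, had 109 in *pho* and 669 in WT at 9–12 cm, and 122 in *pho* and 595 in WT at 5–8 cm. Only *TIFY11A* of these 4 genes had the deeper loss at 5–8 cm, with a log2 ratio of -2.49 at 9–12 cm and -3.23 at 5–8 cm.

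The rule did not use the ratio of the WT arrays to each other, beyond the minimum on both and their place under each ratio of *pho* over WT. In WT, many lost probe sets had a higher signal in the longer panicles. The median log2 ratio of WT at 9–12 cm over WT at 5–8 cm was 0.41 over the lost probe sets, a 1.33-fold difference, with quartiles of -0.07 and 1.13. Over all 12642 probe sets with the same WT minimum it was -0.05, with quartiles of -0.29 and 0.18. The signal was higher at 9–12 cm for 51 of the 74 and lower for 23. At least 2-fold higher at 9–12 cm were 26 of the 74 (35.1%), against 2.29% of the 12642. At least 2-fold lower were 4 of the 74 (5.41%), against 1.51% of the 12642, and the other 44 lay within 2-fold. With 1 WT array per length there is no replicate and no test of these ratios. The 3′ to 5′ ratios of both controls also differed between the WT arrays, with 4.95 at 9–12 cm and 10.6 at 5–8 cm for actin. The part of RNA quality in the difference between the WT arrays was not tested.

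The lost probe sets took a larger share of the steeper differences. Of the 290 probe sets that were at least 2-fold higher at 9–12 cm in WT, 26 were lost probe sets. Of the 34 that were at least 4-fold higher at 9–12 cm in WT, 6 were lost probe sets, and of the 6 that were at least 8-fold higher, 3 were. The 36 with a log2 ratio of *pho* over WT of -4 or less at both lengths had a median WT log2 ratio of 0.96, and 18 of them were at least 2-fold higher at 9–12 cm. The other 38 had a median of 0.20, with 8 at least 2-fold higher. Probe sets that passed the threshold at 1 length only had a median of 0.23 where that length was 9–12 cm, and of -0.13 where it was 5–8 cm. A WT array high in signal also lowers the ratio of *pho* over WT at its own length, so these medians share arrays with the rule.

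The WT signals of the named genes did not move in 1 direction with panicle length. *Cht7* was 6.59-fold and *OsC4* 5.33-fold higher at 9–12 cm, *TIFY11A* was 2.78-fold higher and *TDR* 1.99-fold higher, all as ratios of signals with 16 added. *MEL1* had a log2 ratio of -1.50, and *TIP2* (-0.52) and *PAIR2* (-0.34) were lower at 9–12 cm by less. The log2 ratio was 0.26 for *YAB1*, 0.19 for *EAT1*, 0.16 for *OsGS1;3*, 0.11 for *SPL16*, 0.02 for *SL1* and -0.02 for *OsPIP2;7*. With each array centred on its median, every WT ratio of length shifted by -0.24 on the log2 scale and the median of the 12642 stood at -0.29. Under that centring *EAT1*, *OsGS1;3*, *SPL16* and *SL1* had ratios below 0, and with quantile normalization *SL1* was below 0 and *OsPIP2;7* above it, so no direction is given for these genes. The tapetal bHLH genes thus stood apart from each other in WT, with *TDR* at 1585 at 9–12 cm and 789 at 5–8 cm and *TIP2* at 1140 at 9–12 cm and 1644 at 5–8 cm.

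Among the genes known by locus number only, the largest WT ratio belonged to LOC4327985. Its signal was 155 in *pho* and 15098 in WT at 9–12 cm, and 44.9 in *pho* and 539 in WT at 5–8 cm, so that WT was 27.2-fold higher at 9–12 cm than at 5–8 cm. LOC4333762 had 458 in *pho* and 10416 in WT at 9–12 cm, and 40.4 in *pho* and 778 in WT at 5–8 cm, a 13.1-fold difference between the WT arrays. The probe set Os.5682.1.S1_at, which has no gene in the annotation, had 93.1 in *pho* and 9449.7 in WT at 9–12 cm, and 26.4 in *pho* and 801 in WT at 5–8 cm, an 11.6-fold difference in WT. These 3 are the lost probe sets at least 8-fold higher in the longer WT panicles. The function of these genes is not given in the annotation used here.

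The 4 lost probe sets at least 2-fold lower in the longer WT panicles were those of *MEL1*, LOC4333720, LOC4352624 and LOC4336063. LOC4333720 had a signal of 25.6 in *pho* and 543 in WT at 9–12 cm, and of 78.4 in *pho* and 1798.5 in WT at 5–8 cm. LOC4352624 had 69.7 in *pho* and 2294 in WT at 9–12 cm, and 33.4 in *pho* and 7184.5 in WT at 5–8 cm. LOC4336063 had 7.0 in *pho* and 1008 in WT at 9–12 cm, and 14.7 in *pho* and 3063 in WT at 5–8 cm. The WT signal of these 3 was 3.01-fold to 3.25-fold higher at 5–8 cm than at 9–12 cm, on the same scale with 16 added. The lower *pho* array differed between them, 9–12 cm for LOC4333720 and LOC4336063 and 5–8 cm for LOC4352624.

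The 5 lost probe sets without a named gene and with the highest mean WT signal were taken in the same way. LOC4349600 had a signal of 1591 in *pho* and 25762 in WT at 9–12 cm, and of 4581 in *pho* and 22299 in WT at 5–8 cm. Its *pho* signal at 5–8 cm was thus far above the floor, and the loss was deeper at 9–12 cm. OsAffx.14465.1.S1_s_at, which can match several transcripts, had 544.5 in *pho* and 21894 in WT at 9–12 cm, and 81.3 in *pho* and 14257 in WT at 5–8 cm. LOC4339328 had 86.5 in *pho* and 17479 in WT at 9–12 cm, and 39.8 in *pho* and 12920.3 in WT at 5–8 cm. Its log2 ratios of -7.42 at 9–12 cm and -7.86 at 5–8 cm were under -7 at both lengths. LOC4324640 had 162 in *pho* and 17484 in WT at 9–12 cm, and 40.8 in *pho* and 9320.2 in WT at 5–8 cm. The remaining probe set, of LOC4343894, is described with the other probe sets of its gene.

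The loss was partial for the 6 probe sets whose *pho* signal was at least 500 on both *pho* arrays. Besides *YAB1* and LOC4349600, these were the probe sets of LOC4338023, LOC4332233 and LOC4333957, and Os.39858.1.S1_at, which has no gene in the annotation. LOC4338023 had 3290.3 in *pho* and 16603 in WT at 9–12 cm, and 1341 in *pho* and 7947 in WT at 5–8 cm. LOC4333957 had 858 in *pho* and 7417 in WT at 9–12 cm, and 943 in *pho* and 11902 in WT at 5–8 cm. Os.39858.1.S1_at had 505 in *pho* and 4303 in WT at 9–12 cm, and 931 in *pho* and 6177.5 in WT at 5–8 cm. In WT, LOC4338023 was 2.09-fold higher at 9–12 cm, whereas LOC4333957 and Os.39858.1.S1_at were lower there, with log2 ratios of -0.68 and -0.52.

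At the other end stood probe sets with almost no signal in *pho*. LOC4336725 had the lowest log2 ratio at 9–12 cm, -7.75, with 7.7 in *pho* and 5075 in WT at 9–12 cm, and 19.1 in *pho* and 887 in WT at 5–8 cm. Its WT signal was 5.64-fold higher at 9–12 cm, which makes it the remaining 1 of the 6 lost probe sets at least 4-fold higher in the longer WT panicles, beside *OsC4*, *Cht7* and the 3 above. LOC4323858 had 5.7 in *pho* and 1579 in WT at 9–12 cm, and 2.9 in *pho* and 585 in WT at 5–8 cm. OsAffx.24487.2.S1_s_at, with no gene in the annotation, had 5.4 in *pho* and 1360 in WT at 9–12 cm, and 5.0 in *pho* and 1372 in WT at 5–8 cm, so that neither genotype differed much between the lengths. The *pho* signals of these 3 lay under the array medians of 68.1 at 9–12 cm and 50.5 at 5–8 cm.

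For the 56 genes, the array held 17 further probe sets that were not among the lost ones, 13 because a WT signal lay under 500 and 4 because the ratio did not pass. Those 4 belong to 3 genes. The lost probe set of LOC4343894 had a signal of 490.4 in *pho* and 27861 in WT at 9–12 cm, and of 56.1 in *pho* and 13125 in WT at 5–8 cm. Its other probe set had 16626 in *pho* and 18518 in WT at 9–12 cm, and 20853 in *pho* and 19413 in WT at 5–8 cm, so that it was close to equal in both genotypes. The lost probe set of LOC4336466 had 146 in *pho* and 16706 in WT at 9–12 cm, and 8.1 in *pho* and 9672 in WT at 5–8 cm. Its other probe sets had log2 ratios between -0.21 and 0.45. The lost probe set of LOC4325085 had 61.0 in *pho* and 2418 in WT at 9–12 cm, and 27.4 in *pho* and 1168 in WT at 5–8 cm. The other one of this gene had log2 ratios of -0.50 at 9–12 cm and 0.03 at 5–8 cm. For these 3 genes, the probe sets assigned to 1 gene differed in whether they passed, and which of them reads the gene's transcript was not tested. Of the 13 under the WT minimum, those of LOC4345222 and LOC4347397 came nearest to it. The first had log2 ratios of -0.95 at 9–12 cm and -0.49 at 5–8 cm, against -5.37 and -6.44 for the lost probe set. The second had -1.71 at 9–12 cm and -0.88 at 5–8 cm, against -2.04 and -2.06. The 2 of LOC4348151 are given below.

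Of the 2 genes with 2 lost probe sets each, LOC4348151 had close values in both. Its signals were 42.9 and 65.0 in *pho* and 6930.3 and 7628 in WT at 9–12 cm, and 395.5 and 538 in *pho* and 6909.8 and 7827 in WT at 5–8 cm. Both of its probe sets can match several transcripts, and 2 further ones had WT signals of 84 to 139, with log2 ratios between -2.93 and -2.47. The second lost probe set of LOC4349600, which also can match several transcripts, had 273 in *pho* and 2672 in WT at 9–12 cm, and 332 in *pho* and 2043.5 in WT at 5–8 cm. In *pho* it differed less between the lengths than the first, which had 1591 at 9–12 cm and 4581 at 5–8 cm.

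In *pho*, many of the differences between the lengths lay near the floor. Over the lost probe sets, the median log2 ratio of *pho* at 9–12 cm over *pho* at 5–8 cm was 0.27, with 46 of the 74 higher at 9–12 cm. Over all 12642 it was -0.24. Of the 21 lost probe sets with a *pho* signal of at least 100 on both *pho* arrays, 9 were higher at 9–12 cm and 12 lower, with a median of -0.14. The other lost probe sets that were higher at 9–12 cm in *pho* had a *pho* signal under 100 on at least 1 of the *pho* arrays.

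A fit across all probe sets gave the only test of panicle length that the arrays allow. In limma, with genotype as a term and 1 residual degree of freedom, 0 of 23929 probe sets were higher at 9–12 cm (0%) and 0 lower (0%) after Benjamini-Hochberg adjustment over all of them (two-sided). At an unadjusted p under 0.05, 1672 (6.99%) were higher and 853 (3.56%) lower. Of the 74 lost probe sets, all of which were tested, 23 (31.1%) were higher and 4 (5.41%) lower at that unadjusted p. The lowest adjusted p among the lost probe sets was 0.152, for LOC4333762. The balance over all probe sets turned round with each array centred on its median, where 1083 (4.53%) were higher and 3046 (12.7%) lower, and 17 (23.0%) of the lost probe sets were higher and 8 (10.8%) lower. This fit takes in the *pho* arrays that chose the lost probe sets, and many of their *pho* signals lay near the floor. Its residual is the departure of the length difference in *pho* from that in WT, pooled in part across probe sets. It does not measure a spread between replicates of 1 genotype and length.

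Other genes of the same processes, taken from lists of rice genes, show how far the loss extended. In the list of tapetum and anther wall regulators, 7 of 11 entries had a matching gene on the array. Of these, 3 were lost (*TIP2*, *TDR* and *EAT1*), 6 were lower in *pho* at both lengths and 4 were at least 2-fold lower at both. The fourth was *GAMYB*, a MYB factor of gibberellin signalling in the anther, with 575 in *pho* and 2118 in WT at 9–12 cm, and 686 in *pho* and 1531 in WT at 5–8 cm. *MSP1*, a receptor kinase that limits the number of cells entering the germ line, had 1127 in *pho* and 4876.5 in WT at 9–12 cm, and 3669 in *pho* and 6127 in WT at 5–8 cm. Over all 17905 genes with a probe set, 33.7% were lower at both lengths and 2.21% were at least 2-fold lower at both. Over the genes with the WT minimum, 43.7% and 1.98% were, and 21.4% were higher at both. In this list and those below, lost genes are in these counts by the rule, and the lists were chosen with earlier results known. The counts therefore support nothing by themselves. Of the other matched regulators here, *GAMYB*, *PTC1* and *MSP1* were lower at both lengths and *TDL1A* at 5–8 cm only.

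In the list of pollen wall and tapetum products, 6 of 27 entries could be matched and 1 was lost (*OsC4*). In *pho*, 5 were lower at both lengths, against 33.7% of the 17905 genes. Only 1 of the 6, *OsC4*, met the WT minimum on both WT arrays, so no other could be lost. Of all probe sets with that minimum, 0.641% were lost. Among the matched genes that were not lost, 3 had a WT signal under 500 at 5–8 cm only. Of these 3, *OsC6* also missed the ratio threshold at that length. *OsC6*, which encodes a lipid transfer protein of the tapetum, had 204.5 in *pho* and 15333 in WT at 9–12 cm, and 28.0 in *pho* and 47.0 in WT at 5–8 cm. *CYP703A3*, a cytochrome P450 that hydroxylates fatty acids for the pollen wall, had 128 in *pho* and 8069 in WT at 9–12 cm, and 22.2 in *pho* and 297.5 in WT at 5–8 cm. *RAFTIN1*, a tapetal protein gene, had 64.8 in *pho* and 1763 in WT at 9–12 cm, and 7.5 in *pho* and 142 in WT at 5–8 cm. These 3 genes were singled out by a WT signal under 500 at 5–8 cm only, so a higher WT signal at 9–12 cm follows from that choice. They show only that the WT minimum at both lengths left out genes that were high at 9–12 cm alone.

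In the list of meiosis and germ cell genes, 10 of 19 entries could be matched and 2 were lost, *MEL1* and *PAIR2*. Lost genes are at least 2-fold lower at both lengths by the rule, and no other gene of this list was. *MEL1* and *PAIR2* were the only ones of the 10 with a WT signal of at least 500 on both WT arrays. Over the whole list, 4 of the 10 were lower in *pho* at both lengths and 2 were higher at both, against 33.7% lower and 27.5% higher of the 17905 genes. The 4 include *MEL1* and *PAIR2*, and the others were *DMC1A* and *CRC1*. *MIL2* in this list and *TDL1A* among the tapetum and anther wall regulators had the same signals on all 4 arrays, so these entries are not separate. Those higher at both were *ZEP1*, a gene of the synaptonemal complex, with log2 ratios of 1.28 at 9–12 cm and 0.12 at 5–8 cm, and *ZIP4*. *ZIP4*, a gene of meiotic crossover formation, had 1114 in *pho* and 561 in WT at 9–12 cm, and 573 in *pho* and 359 in WT at 5–8 cm. In the list of carpel, spikelet and floret regulators, 10 of 17 could be matched and 6 of these had the WT minimum. Of the 10, 1 was lost (*SL1*), 5 were lower in *pho* at both lengths, 2 of them at least 2-fold, and 2 were higher at both, beside the same 33.7% and 27.5% of all genes. Besides *SL1*, the gene at least 2-fold lower at both was *DL*, a YABBY gene of carpel identity and the leaf midrib, with 215 in *pho* and 673 in WT at 9–12 cm, and 405 in *pho* and 857.5 in WT at 5–8 cm. The genes higher in *pho* at both lengths were *IDS1* and *RFL*, both with WT signals under 500. *IDS1*, an AP2 gene of spikelet and inflorescence development, had 1523 in *pho* and 67.6 in WT at 9–12 cm, and 161 in *pho* and 33.8 in WT at 5–8 cm. *RFL*, the rice counterpart of *LEAFY*, had 320.4 in *pho* and 165 in WT at 9–12 cm, and 1204.5 in *pho* and 159 in WT at 5–8 cm. The lists of shoot meristem, jasmonate and cell wall loosening held no lost gene, but few of their genes could be called. The WT minimum was met by 3 of 5 matched shoot meristem genes, 4 of 7 jasmonate genes and 12 of 26 genes of cell wall loosening, and beside the 0.641% of all probe sets with that minimum that were lost, counts this small say little. *TIFY11A* is not counted in the jasmonate list, because its name *JAZ9* fits more than 1 gene of the annotation. *JAZ12*, the JAZ gene matched in that list, went the other way from *TIFY11A*. It had 3305 in *pho* and 208 in WT at 9–12 cm, and 484 in *pho* and 372 in WT at 5–8 cm.

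Genes of leaves and photosynthesis also differed between the genotypes. Of 14 entries, 6 could be matched, 0 were lost, with the WT minimum met by 4, and 5 were higher in *pho* at both lengths, against 27.5% of the 17905 genes, and none of the 6 was at 0 on any array. Their summed signal was 50248 in *pho* and 16178 in WT at 9–12 cm, and 30752 in *pho* and 22387 in WT at 5–8 cm. The part of this difference in the loss of the 74 probe sets was not tested.

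A few of the lost genes lie close together in the gene order of the rice assembly ASM3414082v1. With the *OsMADS* genes included, 63 lost genes could be placed among the protein-coding genes, and 8 of them (12.7%) had another lost gene within 5 genes, in 4 pairs. Of 9374 other genes with the WT minimum, 198 (2.11%) had a lost gene within the same distance. These shares are a description, and no test of nearness was made. LOC4333762 and LOC4333763 are direct neighbours. LOC4333763 had a signal of 6.6 in *pho* and 1293 in WT at 9–12 cm, and of 4.0 in *pho* and 817 in WT at 5–8 cm. *SPL16* is a direct neighbour of *OsMADS7* (listed as *OsMADS45*), and 2 genes lie between *PAIR2* and *OsMADS8* (listed as *OsMADS24*). A probe set of 1 of these 2 genes had a WT signal of at least 500 on both WT arrays and was not lost, with 0.31 as the higher of its log2 ratios of *pho* over WT. Between LOC4346223 and *OsC4* lie 2 genes, neither with a probe set. LOC4346223 had 70.1 in *pho* and 7315 in WT at 9–12 cm, and 38.5 in *pho* and 2132 in WT at 5–8 cm. Like *OsC4*, it was higher in the longer WT panicles, by 3.41-fold.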

How the data were processed

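Total RNA of young panicles was hybridized to 1-colour Affymetrix GeneChip Rice Genome Arrays. The authors computed MAS5 signals per probe set in GCOS (versions not given in the sources used here), scaled each array to an overall intensity of 500, and these deposited signals are on a linear scale. Detection calls were not used here. Replicate 1 stands for 5–8 cm and replicate 2 for 9–12 cm, by the labels. The 2 arrays of replicate 1 deviated together from the means of their genotypes, with a correlation of 0.311 over 23929 probe sets. This value would be the same with the lengths exchanged in both genotypes, so it cannot show which length a replicate number stands for.

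After 123 AFFX controls were left out, log2(signal + 16) was taken without further normalization. Genes were taken from the platform annotation (22436 with 1 gene, 95 with several, 34727 with none), and names came from the gene table of ASM3414082v1, where the genes of all 58 assigned members were found. Start positions served only to put the genes in order. No promoters or proteins were used here, so the sequence features that had been planned were not computed. Every member with a gene symbol or synonym other than a locus or clone name was named, together with the 5 members nearest inside and the 5 probe sets nearest outside the threshold, and among the others the 5 with the highest mean WT signal and the 3 with the highest and the 3 with the lowest WT ratio of length. *GAMYB*, *PTC1*, *MSP1*, *TDL1A*, *DL*, *ZEP1*, *ZIP4*, *DMC1A*, *CRC1*, *MIL2*, *IDS1*, *RFL*, *OsC6*, *CYP703A3*, *RAFTIN1*, *CAB2R*, *JAZ12* and *FON1* from the lists were chosen after their values were seen. The same holds for the probe sets singled out for disagreement within a gene, neighbours, a high or low *pho* signal or opposite length ratios. The members and the gene lists were chosen with earlier results of these data known. Where the lists met several probe sets per gene, the one highest in mean signal stood for it.

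Panicle length, with genotype as a term, and genotype alone were each fitted in limma 3.58.1 (R 4.3.3; lmFit, then eBayes with trend) on 23929 probe sets whose mean signal was at least 100, two-sided, adjusted by Benjamini-Hochberg at 0.05. The length fit was also run on simulated data with independent noise and no effect of genotype. Those settings differ from these arrays, so that run does not show how the fit performs on them. Alternatives were pseudocounts of 1 and 64, other minima and thresholds, quantile normalization, centring, removal of probe sets open to cross-hybridization, 1 probe set per gene, leaving out arrays, a fit without the trend and panicle length as a replicate block. Tables were made in pandas 2.3.3 and numpy 2.4.6 under Python 3.11.15.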

Additional observations from a re-analysis of the deposited data

Results flagged for a closer look

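Among the lost probe sets with a *pho* signal of at least 100 on both *pho* arrays, 2 had opposite differences between the panicle lengths in *pho* and in WT, each by at least 0.5 on the log2 scale. For Os.7578.1.S1_at (LOC4332233), the log2 ratio of 9–12 cm over 5–8 cm was -1.68 in *pho* and 0.55 in WT, so that the ratio in *pho* minus that in WT was -2.23. Its signals were 592 in *pho* and 12829 in WT at 9–12 cm, and 1929 in *pho* and 8745 in WT at 5–8 cm. For Os.2322.1.S1_at, which has no gene in the annotation, the ratio was -0.55 in *pho* and 1.13 in WT, a difference of -1.68. Its signals were 332 in *pho* and 5999.6 in WT at 9–12 cm, and 494 in *pho* and 2729 in WT at 5–8 cm. With 1 array per genotype and length, neither difference was tested, and groups of 2 arrays are too small to look for outlying arrays.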

How the results depend on the processing

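With 1 array per genotype and length, no ratio of lengths in WT has a replicate error, and signals near the array medians limit the depth of loss that can be read. The number of lost probe sets was 74, and it was 115 with a WT minimum of 200, 44 with one of 1000, 233 with a log2 threshold of -1 and 49 with one of -3. With a threshold of -4, chosen after seeing the data, it was 36 and the median WT log2 ratio of length was 0.96, against 0.41. When 1 array or both arrays of a length were left out, the number ranged between 82 (WT at 9–12 cm left out) and 358 (both arrays of 5–8 cm left out). It was 169 with *pho* at 5–8 cm left out, 191 with WT at 5–8 cm left out and 121 with both arrays of 9–12 cm left out. With both arrays of a length left out, the rule had fewer conditions, so all 74 stayed and the number could only rise. Leaving out a WT array also dropped its WT minimum. Under the other alternatives there were 54 to 77 lost probe sets, 18 to 28 at least 2-fold higher and 3 to 5 at least 2-fold lower in the longer WT panicles, and the median was 0.18 to 0.79, the lowest and highest under thresholds of -1 and -3 added after seeing the data. For panicle length limma called 14 probe sets with centred arrays (13 higher, 1 lower; 0 of them lost probe sets) and 0 otherwise. At an unadjusted p under 0.05, centring gave 1083 higher and 3046 lower, against 1672 and 853. For *pho* against WT it called 0, with 826 higher and 809 lower at an unadjusted p under 0.05, and 40 with panicle length as a replicate block (8 higher, 32 lower), while leaving out each array in turn gave 0 each time. The unadjusted counts moved, to 2716 higher and 2880 lower without the 5–8 cm array of *pho*, to 925 and 934 without that of 9–12 cm, to 592 and 439 without the 5–8 cm array of WT and to 369 and 209 without that of 9–12 cm. Of 52 WT ratios of the named genes under alternatives, 44 stayed close to their value and 8 moved. Values of length without a WT array, or limma for length without any array, could not be had.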
